A study of Mus musculus with 6 samples.

Results

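The cytosolic translation initiation and elongation factors of RAW 264.7 cells were taken as the gene symbols of the deposited count table that begin with Eif1 to Eif6 or with Eef1 or Eef2. The eIF2α kinases (Eif2ak genes), Eef1e1 and names with -ps were left out. This rule uses names and no measured value, and it gave 74 of the 22192 genes in the table. Of these, 63 were abundant enough to test. The 11 that were not tested were 8 numbered Eif1ad copies and Eif4a3l1, all at 0 counts throughout, and Eif5a2 and Eef1ece2, which had at most 4 counts in a library.

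RAW 264.7 is an established mouse macrophage-like line of BALB/c origin. Polyadenylated RNA was sequenced from 3 libraries labelled as treated with ASPS-A1 and from 3 labelled control, and both groups come from this 1 line. ASPS-A1, an acidic polysaccharide fraction obtained from leaves of Acanthopanax senticosus, was given at 200 µg/mL for 24 h, and the medium of the control cells is not described beyond that label. The titles number the treated libraries ASPS-A1, A2 and A3 although the treatment label is the same for each. Nothing says that the libraries of a group came from separate cultures, so p-values measure only the spread between these libraries, which may be technical.

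Protein synthesis begins when eIF2, loaded with the initiator tRNA and held ready by its exchange factor eIF2B, joins eIF1, eIF1A, eIF3 and eIF5 on the small ribosomal subunit. The eIF4 factors bind the messenger RNA at its cap and unwind it, and the 4E-binding proteins hold back the cap-binding factor eIF4E. Elongation then runs on eEF1A, which delivers aminoacyl-tRNA, on the eEF1B subunits that recharge it, and on eEF2, which moves the ribosome along. In macrophages this machinery is known as a control point for how much of an induced cytokine messenger RNA is turned into protein, mainly through eIF2α phosphorylation and the mTORC1 and MNK kinases. RNA sequencing measures the transcripts of these factors and not their phosphorylation or activity.

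Library totals ran from 19989318 to 26137127 counts, with the treated libraries at 19989318 to 22179544. Levels are given as CPM, read counts divided by library size, on sizes scaled with TMM factors, which ran from 0.921 to 0.945 with ASPS-A1 and from 1.06 to 1.08 in control. Each gene was tested with edgeR's quasi-likelihood test over all 11686 genes abundant enough, and "rose" or "fell" means an adjusted p under 0.05. A positive log2 fold change means a higher level with ASPS-A1. Because factors differed between groups, scaling by library totals alone lowered the log2 fold changes of all genes by a median of 0.20, so counts under that scaling are given beside those with TMM factors. All 8 macrophage markers were detected, with a summed level of 2997 to 3144 CPM with ASPS-A1 and 2183 to 2230 CPM in control. Of these 8, 6 rose, Mpeg1 fell (238 to 131 CPM, log2 fold change −0.86, adjusted p = 6.04e-20) and Csf1r had no call (−0.095, adjusted p = 0.0749). The 5 fibroblast, 5 epithelial and 5 T cell markers summed to at most 0.923 CPM in any library. Of the B cell markers, Cd79b alone was tested (34.6 against 31.0 CPM, adjusted p = 0.0792). The part of the macrophage marker level in the results was not tested.

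Translation factor transcripts were mostly higher with ASPS-A1, on a scale relative to the other RNA of each library. Scaling each library to its own size removes differences in total RNA, so a change in RNA per cell cannot be seen. Of the 63 tested, 39 rose and 5 fell, which leaves 19 without a call. Their median log2 fold change was 0.34 against −0.021 over all genes tested. Called genes were 65.3% of all genes tested, 32.4% higher and 33.0% lower, so the 44 called members stood at 69.8%, near that share, while their split between directions was uneven. With scaling by library totals alone 30 members rose and 17 fell, with a median of 0.15. All genes shifted by a median of −0.20 under that scaling. With offsets that remove each library's trend with transcript length and GC content, 38 rose and 8 fell, with a median of 0.24. All genes shifted by a median of 0.039 with these offsets. The share of all genes called is not given here for either setting. Of the 63 tested members 19 were called with a change above 1.5-fold, against 3192 of all 11686 genes, and the median size of the log2 change was 0.34 against 0.38. Called changes above 2-fold were those of 3 members, Eif1ad, Eif2b1 and Eif4ebp1. The count of all genes past 2-fold is not given here, so this number has no share to set it against. The libraries of the 2 groups did not overlap for 41 of the 44 called members and for 47 of the 63 tested, against 68.5% of all genes tested.

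**Figure D1:**
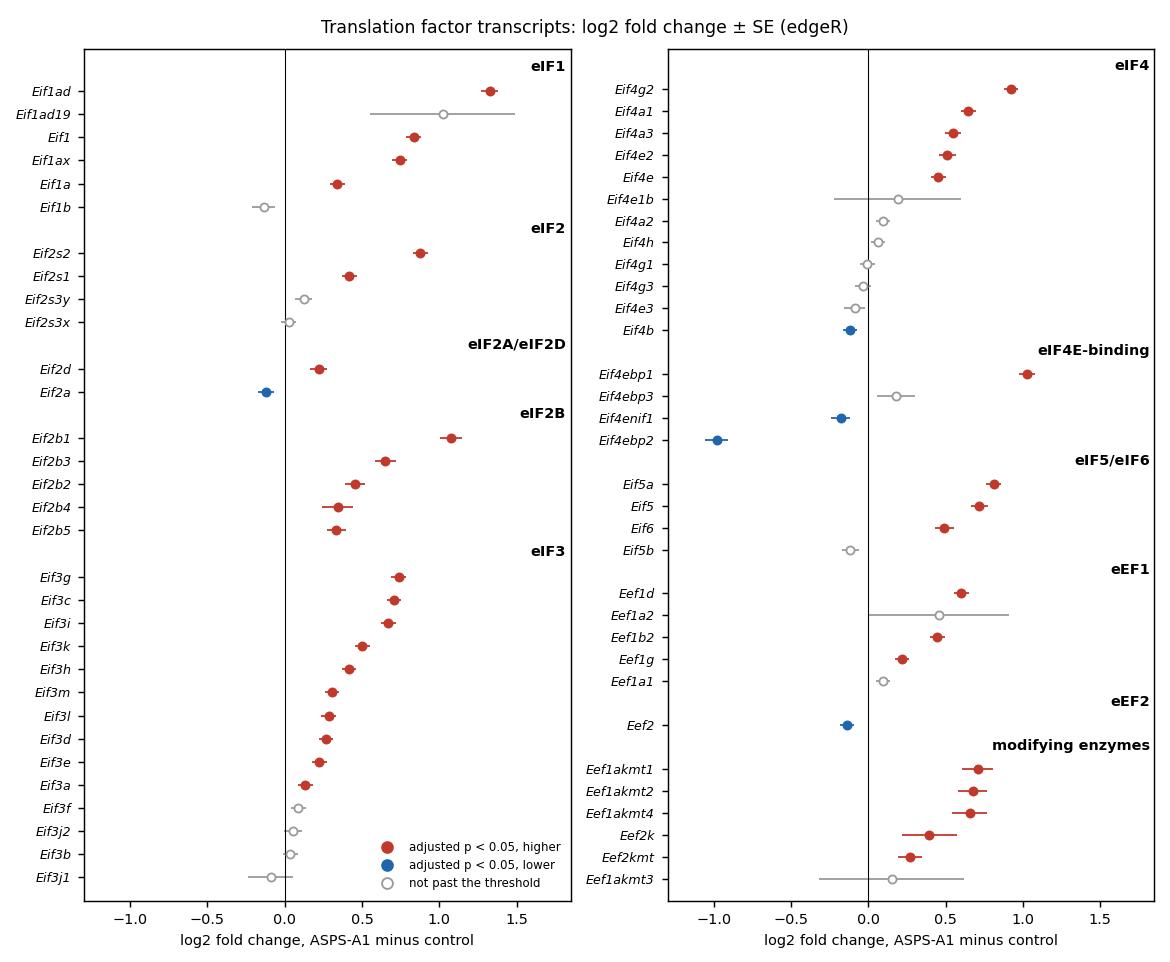
Log2 fold change (ASPS-A1 minus control, horizontal axis) of the 63 tested translation factor genes, grouped by complex. Points are edgeR estimates from 3 libraries a group and bars are standard errors; red and blue points passed an adjusted p of 0.05, higher and lower, and open points did not. All 5 eIF2B subunits and 10 of 14 eIF3 subunits lie to the right with filled points, and Eif4ebp2 lies farthest to the left at −0.98.

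The summed counts of all 74 genes took a share of each library that overlapped between groups. It was 4.11%, 4.13% and 4.21% with ASPS-A1 and 4.19%, 4.15% and 4.12% in control (exact permutation test, two-sided, p = 0.9, adjusted p = 0.9 over 14 such shares, n = 3 per group). This sum is dominated by Eef1a1 and Eef2, and each of them had a lower share in every treated library than in any control library. Leaving them out therefore moves the comparison towards a higher share with ASPS-A1. Without that pair the share was 1.89%, 1.89% and 1.92% with ASPS-A1 against 1.69%, 1.68% and 1.64% in control, with every treated library above every control library. Its exact permutation p was 0.1 (two-sided, n = 3 per group, adjusted p = 0.108), the smallest that 3 libraries against 3 can give. Shares of this kind use library totals and no TMM factor.

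The eIF2 complex changed unevenly among its subunits. Eif2s2, which encodes the β subunit, stood at 432, 423 and 458 CPM with ASPS-A1 and 241, 246 and 228 CPM in control. All treated libraries lay above all control libraries (log2 fold change 0.88 ± 0.048 SE, adjusted p = 7.81e-21). Eif2s1, which encodes the α subunit that the stress kinases phosphorylate, stood at 276, 292 and 297 CPM with ASPS-A1 and 215, 221 and 212 CPM in control, a smaller rise with no overlap (log2 fold change 0.42 ± 0.047 SE, adjusted p = 9.12e-11). The γ subunit, which binds GTP and the initiator tRNA, is encoded by an X-linked and a Y-linked gene. Eif2s3x stood at 309, 297 and 335 CPM with ASPS-A1 and 313, 313 and 298 CPM in control, with the groups interleaved (log2 fold change 0.027 ± 0.048 SE, adjusted p = 0.642). Eif2s3y had a log2 fold change of 0.12 ± 0.056 SE and did not pass the threshold (adjusted p = 0.0519), and it has no settled direction. It rose with relative log expression factors (0.13, adjusted p = 0.0336), with DESeq2 (0.13, adjusted p = 0.0496) and without ASPS-A1 replicate 1 (0.15, adjusted p = 0.0448) or replicate 2 (0.15, adjusted p = 0.0146). It fell with the length and GC offsets (−0.11, adjusted p = 0.0379). How reads shared between the X and Y copies were counted is not given in the sources used here. The 4 subunits had a median of 0.27, which library totals alone reduced to 0.075, where 2 rose and Eif2s3x fell (−0.17). With the length and GC offsets 3 rose, Eif2s3x among them (0.099, adjusted p = 0.0300). Ratios of counts within each library are free of library scaling but are not corrected for transcript length or GC content. The number of Eif2s2 counts per Eif2s1 count was 1.57, 1.45 and 1.54 with ASPS-A1 and 1.12, 1.11 and 1.08 in control. The treated libraries were all higher in this ratio (exact permutation p = 0.1, two-sided, n = 3 per group, the smallest possible). It is 1 of 9 such ratios chosen after the values were seen, each with an adjusted p of 0.1.

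A pair of factors that handle initiator tRNA outside the usual route moved apart by small amounts. Eif2d, whose product can place tRNA on the ribosome without GTP, rose (0.22, adjusted p = 0.000400). Eif2a, whose product is a separate initiation factor and not the α subunit of eIF2, fell (−0.12, adjusted p = 0.0393). The fall of Eif2a lost the call with relative log expression factors, with DESeq2 and when replicate 1 or 2 of either group was left out, and its log2 fold change was −0.072 (adjusted p = 0.200) without ASPS-A1 replicate 2. With scaling by library totals alone Eif2d had 0.025 (adjusted p = 0.697) and Eif2a −0.32 (adjusted p = 3.85e-06).

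All 5 subunits of eIF2B, which recharges eIF2 with GTP and is the target of phosphorylated eIF2α, rose. Eif2b1, which encodes the α subunit of the regulatory part, stood at 62.6, 68.3 and 73.4 CPM with ASPS-A1 and 34.1, 33.1 and 30.0 CPM in control. Its treated libraries were all above its control libraries; the rise was among the 3 above 2-fold (log2 fold change 1.07 ± 0.071 SE, adjusted p = 6.36e-18). The other regulatory subunits rose less, with Eif2b2 (β) at 0.45 and Eif2b4 (δ) at 0.34. Of the catalytic pair, Eif2b3 (γ) stood at 62.1, 63.2 and 69.9 CPM with ASPS-A1 and 42.4, 41.9 and 39.9 CPM in control, with no overlap (log2 fold change 0.65 ± 0.066 SE, adjusted p = 6.36e-12). Eif2b5, which encodes the ε subunit that carries the exchange activity, had 0.33 ± 0.060 SE (adjusted p = 4.67e-06). The 5 genes did not overlap between groups in any case, and the median change was 0.45. For Eif2b4 the groups came close, with the lowest treated library at 20.8 CPM and the highest control library at 20.7 CPM. Library totals alone made that 0.26, where 4 rose and Eif2b4 did not pass the threshold. The number of Eif2b1 counts per Eif2b5 count was 0.811, 0.811 and 0.857 with ASPS-A1 and 0.495, 0.507 and 0.484 in control, so the α subunit gained on the ε subunit in every treated library (exact permutation p = 0.1, two-sided, n = 3 per group). Per kilobase of transcript the control levels ran from 9.01 ± 1.06 CPM for Eif2b4 to 31.8 ± 2.37 for Eif2b2 (SD, n = 3).

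eIF3 is the large scaffold that holds the other factors on the small subunit, and 10 of its 14 genes rose while none fell. The 4 not past the threshold were Eif3b, Eif3f and the near-identical copies Eif3j1 and Eif3j2, whose shared reads may have been split between them. Eif3g, whose RNA-binding subunit sits near the messenger RNA entry channel, stood at 216, 230.0 and 218 CPM with ASPS-A1 and 134, 138 and 127 CPM in control, with no overlap between groups (log2 fold change 0.74 ± 0.049 SE, adjusted p = 7.77e-18). Eif3c, a core subunit that contacts eIF1 and eIF5, stood at 748, 753 and 750.3 CPM with ASPS-A1 and 482, 460.2 and 437 CPM in control, and its treated libraries were nearly equal to each other (log2 fold change 0.71 ± 0.048 SE, adjusted p = 1.27e-17). Eif3i, the WD40 partner of eIF3b and eIF3g, also rose (0.67), as did Eif3k (0.50). Eif3a, the largest subunit, rose by only 0.13 with overlapping libraries (adjusted p = 0.0149), and that call was lost when replicate 1 or 3 of either group was left out, with upper-quartile factors, or with scaling by library totals alone (−0.063).

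Subunits of this 1 complex moved by different amounts. The core subunits Eif3c, Eif3g and Eif3i rose by 0.67 to 0.74 while the core subunits Eif3a and Eif3b had 0.13 and 0.036. Per kilobase of transcript, Eif3h was the most abundant subunit gene at 573 ± 24.1 CPM in control and 765 ± 28.7 with ASPS-A1 (SD, n = 3), and it rose (log2 fold change 0.42 ± 0.048 SE, adjusted p = 1.84e-10). It was followed in control by Eif3e (336 ± 10.8) and Eif3k (273 ± 15.6), and Eif3j2 (35.1 ± 0.945) and Eif3j1 (2.08 ± 0.184) were the lowest of the 14. Eif3c (136 ± 6.59) and Eif3l (132 ± 7.73) were neighbours in that order and differed by less than the SD of Eif3c. The order by length rests on 1 reference transcript per gene, and which transcripts were made was not measured here.

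**Figure D2:**
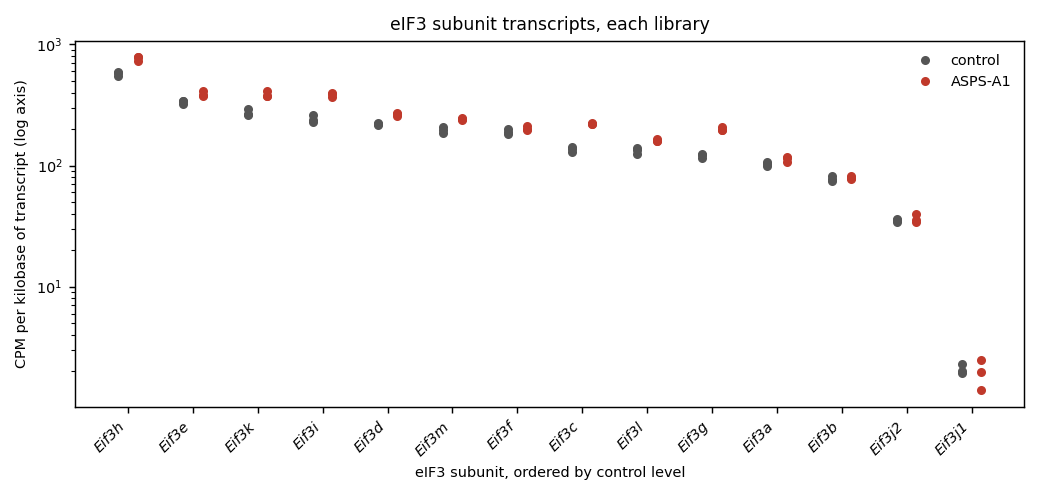
Level of the 14 eIF3 subunit genes in each of the 6 libraries, as CPM per kilobase of 1 GENCODE transcript (vertical log axis), ordered by the control mean. Grey points are the 3 control libraries and red points the 3 ASPS-A1 libraries. Eif3h is highest in both groups, the red points lie above the grey ones for Eif3c, Eif3g, Eif3i and Eif3k, and those of Eif3b and Eif3j2 overlap.

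The eIF3 median was 0.27, and it depended on the scaling. With scaling by library totals alone 6 rose, 3 fell (Eif3b, Eif3f and Eif3j2) and the median was 0.080. With the offsets for length and GC content 7 rose, Eif3e fell (−0.11, adjusted p = 0.0110) and the median was 0.11. Under these offsets Eif3k went to 0.057 (adjusted p = 0.219), Eif3m to −0.085 (adjusted p = 0.0673) and Eif3h to 0.079 (adjusted p = 0.0660). Eif3c and Eif3g kept their rise at 0.81 and 0.38. For Eif3d, 43.3% of the exon length is shared with a predicted gene, and without strand information their reads cannot be told apart.

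Among the cap-binding and helicase factors of the eIF4 group, 5 of 12 tested genes rose and 1 fell, and the other 6 had no call. Eif4g2, which encodes a scaffold that lacks the eIF4E-binding site and serves translation independent of the cap, stood at 985, 948 and 1022 CPM with ASPS-A1 and 525, 534 and 501 CPM in control. The treated libraries were 1.89-fold higher with no overlap (log2 fold change 0.92 ± 0.048 SE, adjusted p = 1.14e-21). Its paralogs, the cap-dependent scaffolds, behaved otherwise: Eif4g1 stood at 409.7, 435 and 412 CPM with ASPS-A1 and 418, 418 and 427 CPM in control (log2 fold change −0.0072 ± 0.047 SE, adjusted p = 0.899), and Eif4g3 had −0.034 (adjusted p = 0.588). With scaling by library totals alone Eif4g1 fell (−0.20) and Eif4g3 fell (−0.23), whereas with the length and GC offsets both rose (0.29 and 0.24). The number of Eif4g2 counts per Eif4g1 count was 2.41, 2.18 and 2.48 with ASPS-A1 and 1.25, 1.28 and 1.17 in control, so the balance between these scaffolds moved towards Eif4g2 in every treated library (exact permutation p = 0.1, two-sided, n = 3 per group).

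The helicase paralogs also separated. Eif4a1, the main eIF4F helicase gene, stood at 1326, 1388 and 1327 CPM with ASPS-A1 and 871, 854 and 856 CPM in control, with every treated library above every control library (log2 fold change 0.65 ± 0.046 SE, adjusted p = 1.02e-16). Eif4a2 stood at 522, 495 and 532 CPM with ASPS-A1 and 474, 490.4 and 486 CPM in control, where the groups came close without overlapping (log2 fold change 0.095 ± 0.047 SE, adjusted p = 0.0737). Eif4a2 turned to −0.10 (adjusted p = 0.0446) with scaling by library totals alone and −0.059 (adjusted p = 0.183) with the length and GC offsets, and it passed the threshold with DESeq2 (0.11, adjusted p = 0.0257). For this gene 13.3% of the exon length is shared with other genes, small nucleolar RNAs among them. The Eif4a1 to Eif4a2 ratio was 2.54, 2.81 and 2.50 with ASPS-A1 and 1.84, 1.74 and 1.76 in control, higher in all treated libraries (exact permutation p = 0.1, two-sided, n = 3 per group). Eif4a3, whose product belongs to the exon junction complex and not to eIF4F, rose (0.55, adjusted p = 1.60e-12).

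Eif4e, the cap-binding factor, stood at 380.5, 401 and 422 CPM with ASPS-A1 and 294, 293 and 293 CPM in control, a rise with no overlap (log2 fold change 0.45 ± 0.047 SE, adjusted p = 1.38e-11). Eif4e2, whose product binds the cap without recruiting eIF4G and represses chosen messenger RNAs, rose to a like degree (0.51, adjusted p = 2.63e-11). Eif4b, which helps the helicase, fell from 1258 to 1159 CPM, a small change (log2 fold change −0.12 ± 0.046 SE, adjusted p = 0.0214). That call was lost with relative log expression factors and when ASPS-A1 replicate 1 or 3 or control replicate 1 or 2 was left out, and Eif4b had 0.029 (adjusted p = 0.511) with the length and GC offsets. Eif4h, its smaller relative, had 0.060 (adjusted p = 0.252), and −0.14 (adjusted p = 0.00606) with scaling by library totals alone. Eif4e3 had −0.090 (adjusted p = 0.260), but it fell with scaling by library totals alone and with the length and GC offsets. Over the alternatives its log2 fold change ran from −0.28 to −0.061. The germline paralog Eif4e1b was near the floor at 27, 11 and 17 counts with ASPS-A1 and 21, 16 and 28 in control. The median of the 12 genes was 0.14, but library totals alone made it −0.052, and 5 rose and 6 fell.

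**Figure D3:**
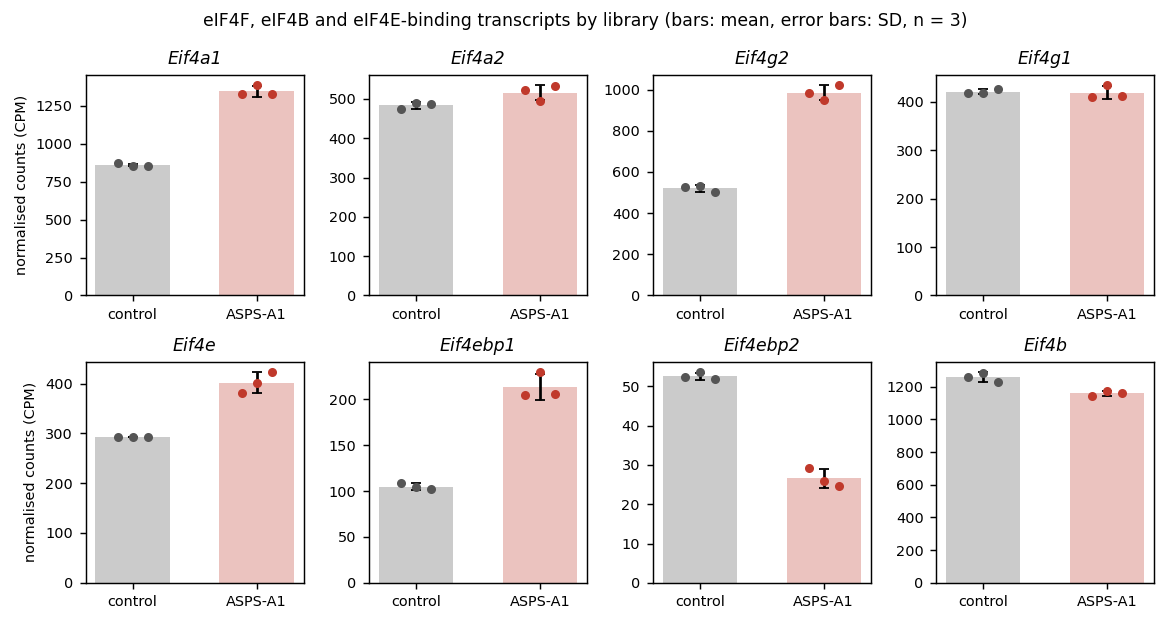
Normalised counts (CPM, vertical axes starting at 0) of 8 cap-complex genes in control and ASPS-A1 libraries. Points are libraries, bars are means and error bars are SD (n = 3). Eif4a1, Eif4g2, Eif4e and Eif4ebp1 are higher with ASPS-A1 with no overlap, Eif4ebp2 is lower at 26.6 ± 2.41 CPM with ASPS-A1 and 52.6 ± 0.890 in control, and Eif4g1 overlaps.

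Genes for proteins that bind eIF4E moved in opposite directions, with 1 of 4 higher and 2 lower under TMM factors, library totals alone and the offsets alike. Eif4ebp1, which encodes the repressor that mTORC1 phosphorylates and whose gene is a known ATF4 target, stood at 205, 229 and 206 CPM with ASPS-A1 and 108, 104 and 102 CPM in control. It was 2.03-fold higher with no overlap (log2 fold change 1.02 ± 0.052 SE, adjusted p = 4.03e-22). Eif4ebp2, the paralog with the same activity, stood at 29.3, 25.8 and 24.7 CPM with ASPS-A1 and 52.5, 53.6 and 51.8 CPM in control. It was 1.98-fold lower with no overlap (log2 fold change −0.98 ± 0.075 SE, adjusted p = 7.04e-16), and it was the only fallen member to keep its call under all 17 alternatives tried. The ratio of Eif4ebp1 to Eif4ebp2 counts was 6.99, 8.89 and 8.35 with ASPS-A1 and 2.07, 1.95 and 1.96 in control, a change of 4.05-fold in the group means (exact permutation p = 0.1, two-sided, n = 3 per group). Eif4ebp1 also gained on Eif4e itself, with ratios of 0.538, 0.573 and 0.487 with ASPS-A1 and 0.369, 0.357 and 0.347 in control (exact permutation p = 0.1, two-sided, n = 3 per group). Per kilobase of transcript, Eif4ebp1 stood at 52.5 ± 1.67 CPM in control and 107 ± 6.98 with ASPS-A1, and Eif4ebp2 at 9.10 ± 0.154 and 4.60 ± 0.417 (SD, n = 3). Eif4ebp3 had 0.18 (adjusted p = 0.194) and turned to −0.28 (adjusted p = 0.0443) with the length and GC offsets, and 67.3% of its exon length is shared with another gene. Eif4enif1, which encodes the eIF4E transporter of processing bodies, fell (−0.18, adjusted p = 0.0102) and lost the call with those offsets (−0.049). It also lost the call without ASPS-A1 replicate 3 (−0.15, adjusted p = 0.0606) or control replicate 1 (−0.15, adjusted p = 0.0636).

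Of the 6 tested genes named Eif1, 4 rose and none fell (median 0.79), and 4 rose and 1 fell with scaling by library totals alone (median 0.59). The 4 that encode eIF1 and eIF1A proteins, which take part in scanning for the start codon, are Eif1, Eif1b, Eif1a and Eif1ax. Eif1, which guards start codon choice, stood at 498, 497 and 479 CPM with ASPS-A1 and 262, 299.9 and 264 CPM in control, with no overlap (log2 fold change 0.83 ± 0.050 SE, adjusted p = 2.72e-19). Its paralog Eif1b had −0.14 (adjusted p = 0.0950), with the treated libraries all below the control ones, and it fell with scaling by library totals alone (−0.33), with the length and GC offsets (−0.52), with upper-quartile factors (−0.19) and without ASPS-A1 replicate 2 (−0.20). The X-linked Eif1ax rose by 0.74 and Eif1a by 0.34, and these copies encode nearly the same protein, so shared reads may have been split between them. Eif1ad, named for an eIF1A-like domain and not an established initiation factor, stood at 132, 142 and 135 CPM with ASPS-A1 and 56.1, 54.0 and 53.0 CPM in control. This was the largest rise of any tested member (log2 fold change 1.32 ± 0.056 SE, adjusted p = 4.66e-25), and 15.3% of its exon length is shared with Banf1. Eif1ad19 was near the detection floor at 15, 33 and 10 counts with ASPS-A1 and 9, 11 and 19 in control and did not pass the threshold (log2 fold change 1.02, adjusted p = 0.0519). It passed as a rise with relative log expression factors, with thinning to the smallest total and without ASPS-A1 replicate 1, ASPS-A1 replicate 3 or control replicate 3. Over the alternatives that tested it, its log2 fold change ran from 0.34, without ASPS-A1 replicate 2, to 1.33.

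Of the 4 tested eIF5 and eIF6 genes, whose products act at different steps, 3 rose and none fell (median 0.60). Library totals alone gave 3 higher and 1 lower (median 0.41). Eif5a, which encodes the hypusine-bearing factor that helps the ribosome past proline-rich stretches, stood at 1352, 1478 and 1380.0 CPM with ASPS-A1 and 832, 812 and 758 CPM in control. It was 1.75-fold higher with no overlap (log2 fold change 0.81 ± 0.049 SE, adjusted p = 2.69e-19). Eif5, which triggers GTP hydrolysis on eIF2, stood at 200.1, 193 and 225 CPM with ASPS-A1 and 131, 126 and 119 CPM in control, again with no overlap (log2 fold change 0.72 ± 0.053 SE, adjusted p = 6.62e-16). Eif6, which keeps large subunits from joining too early, rose (0.49, adjusted p = 9.84e-10). Eif5b, the GTPase of subunit joining, had −0.12 (adjusted p = 0.0650) with overlapping libraries, and it fell with scaling by library totals alone (−0.31) and had 0.11 (adjusted p = 0.0528) with the length and GC offsets. It also passed the threshold without ASPS-A1 replicate 3 (−0.16, adjusted p = 0.0256) or control replicate 2 (−0.15, adjusted p = 0.0408). Shared exon length with Rev1 was 16.8% for this gene.

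Promoters were compared because many members rose together, and the E-box bound by MYC-family factors is known from the Eif4e promoter. The letters CACGTG (its own reverse complement, so both strands are covered) were searched in RefSeq windows of 300 bases, from 250 before to 50 after each start on GRCm38.p6. Of the 74 genes, 48 had a window, and 13 of them held an E-box. It was found in 15 of 62 member windows (24.2%) against 7.15% of all 32851 windows. Those 32851 windows were not limited to genes tested here, and some genes have several windows, so like sets of genes were not compared. Among members with a window it occurred in 7 of 28 that rose and in 5 of 18 tested ones that did not rise. The stretches below show an E-box in capitals upstream of 3 risen members, of Eef2, which fell, and of Eif4g1, which was not past the threshold, with 1 stretch per gene where a gene has several.
Eif4e: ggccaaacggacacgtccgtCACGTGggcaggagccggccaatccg
Eif4a1: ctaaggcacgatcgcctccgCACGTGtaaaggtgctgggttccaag
Eif5a: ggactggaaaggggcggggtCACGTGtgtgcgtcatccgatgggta
Eef2: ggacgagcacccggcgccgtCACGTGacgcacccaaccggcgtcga
Eif4g1: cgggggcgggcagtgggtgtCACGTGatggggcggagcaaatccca
On GRCm38.p6 the stretches lie at chr3:138527184-138527229 (plus strand) for Eif4e, chr11:69672587-69672632 (minus strand) for Eif4a1 and chr11:69921435-69921480 (minus strand) for Eif5a. The others lie at chr10:81176568-81176613 (plus strand) for Eef2 and chr16:20672653-20672698 (plus strand) for Eif4g1. The C/EBP-ATF element TGATGNAA, on either strand, was in 2 of 62 member windows (3.23%) against 3.97% of all windows, in Eef2k and Eif2s3x. The cyclic AMP response element TGACGTCA was in 1 of 62 (1.61%) against 1.79%, in Eef2. A match is only a run of letters, and binding was not measured here.

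Eef1a1 and Eef2 were the most abundant members, and neither moved far. Eef1a1, the carrier of aminoacyl-tRNA, stood at 19135, 19855 and 20098 CPM with ASPS-A1 and 18454, 18586 and 18311 CPM in control, where the treated libraries were above the control ones by a small margin that did not pass the threshold (log2 fold change 0.094 ± 0.046 SE, adjusted p = 0.0697). This gene has no settled direction: it fell with scaling by library totals alone (−0.10, adjusted p = 0.0109) and with the length and GC offsets (−0.10, adjusted p = 0.00569), and it rose with DESeq2 (0.11, adjusted p = 0.0114) and limma-voom (0.094, adjusted p = 0.0307). Its share of all counts was 1.81%, 1.83% and 1.88% with ASPS-A1 and 1.98%, 1.97% and 1.98% in control. Eef1a1 has processed pseudogene copies, and how reads shared with them were counted is not given in the sources used here. Its tissue-restricted paralog Eef1a2 was near the floor at 15, 19 and 14 counts with ASPS-A1 and 22, 17 and 8 in control.

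The 3 subunits of the eEF1B exchange complex rose. Eef1b2, the catalytic subunit, stood at 1394, 1402 and 1362 CPM with ASPS-A1 and 995, 1067 and 992 CPM in control, with no overlap (log2 fold change 0.45 ± 0.047 SE, adjusted p = 1.74e-11). Eef1d, the second exchange subunit, stood at 338, 358 and 327 CPM with ASPS-A1 and 225, 230.0 and 219.9 CPM in control, also with no overlap (log2 fold change 0.60 ± 0.047 SE, adjusted p = 2.09e-15). Eef1g, the structural subunit, rose less (0.22, adjusted p = 8.47e-05), and it had 0.020 (adjusted p = 0.662) with scaling by library totals alone. The Eef1g call was also lost with the length and GC offsets and in the test against a 1.2-fold change. Counts of Eef1a1 per count of Eef1b2 were 13.7, 14.2 and 14.8 with ASPS-A1 and 18.6, 17.4 and 18.5 in control, lower in every treated library (exact permutation p = 0.1, two-sided, n = 3 per group). Per kilobase of transcript the control order was Eef1a1 (10284 ± 76.5 CPM), Eef1g (1041 ± 35.0), Eef1b2 (525 ± 21.9) and Eef1d (97.2 ± 2.18), each apart from the next by more than their spread (SD, n = 3). The 5 eEF1 genes had a median of 0.45, which library totals alone reduced to 0.25, where 2 rose and Eef1a1 fell. Leaving out ASPS-A1 replicate 2 gave a median of 0.27 and leaving out control replicate 3 gave 0.18, and the values of the 5 include that of Eef1a2 at 8 to 22 counts.

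Eef2, the translocation factor, was one of the 5 members that fell. It stood at 4338, 4381 and 4332 CPM with ASPS-A1 and 4873, 4783 and 4699 CPM in control, with every treated library below every control library but by only 1.10-fold (log2 fold change −0.14 ± 0.046 SE, adjusted p = 0.00792). The log2 fold change was −0.33 with scaling by library totals alone and −0.026 (adjusted p = 0.535) with the length and GC offsets, where the call was lost. Genes of enzymes that modify the elongation factors rose in 5 of 6 cases, or in 3 with scaling by library totals alone, with medians of 0.52 and 0.33. The eEF1A lysine methyltransferase genes Eef1akmt1 (13.3 to 21.8 CPM, 0.71), Eef1akmt2 (0.67) and Eef1akmt4 (0.65) rose. The eEF2 methyltransferase gene Eef2kmt also rose (0.27). Eef2k, the kinase that switches eEF2 off, was at the threshold with overlapping libraries of 133, 129 and 96 counts with ASPS-A1 and 118, 97 and 155 in control (0.39, adjusted p = 0.0486), and its call was lost under 13 of the 17 alternatives. Shared exon length was 31.7% for Eef1akmt4 and 23.0% for Eef2kmt.

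Genes that control these factors, taken from lists outside the naming rule, moved in both directions. So did all genes tested, of which 65.3% were called, 32.4% higher and 33.0% lower. With TMM factors, called genes were 88.9% of the list for eIF2α phosphorylation and 50% of that for mTORC1. They were 75% of the MNK and cap-binding modulators and 80% of the poly(A)-binding genes. The hypusine and diphthamide enzymes had 77.8%, termination and recycling 60% and mitochondrial translation factors 80%. These lists hold only 5 to 12 tested genes. Of 9 genes of eIF2α phosphorylation, 3 rose and 5 fell, or 3 and 6 with scaling by library totals alone. All 4 eIF2α kinase genes fell, though the Eif2ak1 call was lost with DESeq2 (adjusted p = 0.0631) and when ASPS-A1 replicate 3 (0.130) or control replicate 2 (0.127) was left out. Eif2ak3, which encodes the endoplasmic reticulum stress sensor PERK, went from 35.4 to 18.2 CPM with no overlap (log2 fold change −0.97 ± 0.088 SE, adjusted p = 2.70e-13). Eif2ak4, which encodes the amino acid sensor GCN2, fell by 0.49 on the log2 scale, and Eif2ak2 (PKR, −0.32) and Eif2ak1 (the heme-regulated kinase, −0.22) fell less. The phosphatase subunit genes Ppp1r15a (2.05) and Ppp1r15b (0.68) rose, as did Atf4 (1.49), the transcription factor translated when eIF2α is phosphorylated. With the length and GC offsets 3 of the 9 fell and the list's median moved from −0.22 to 0.091, with Eif2ak1 at −0.019 (adjusted p = 0.868), Eif2ak2 at −0.18 (adjusted p = 0.0100), Eif2ak3 at −0.75 (adjusted p = 1.38e-11) and Eif2ak4 at −0.23 (adjusted p = 0.000455).

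Of 12 genes of mTORC1 and its translation substrates, 2 rose and 4 fell. Rheb, the GTPase that activates mTORC1, rose from 75.4 to 138 CPM (0.87), and Akt1s1 rose (0.32). The mTOR inhibitor gene Deptor fell from 15.2 to 4.36 CPM (−1.80). Pdcd4, whose product sequesters the eIF4A helicase, stood at 17.7, 15.4 and 17.2 CPM with ASPS-A1 and 44.2, 46.2 and 38.4 CPM in control, 2.56-fold lower with no overlap (log2 fold change −1.35 ± 0.087 SE, adjusted p = 1.99e-18). These counts were 1 and 10 with scaling by library totals alone and 6 and 2 with the length and GC offsets, so the list has no settled direction. Of 8 MNK and cap-binding modulators, 5 rose and 1 fell (3 and 2 with scaling by library totals alone), with the reinitiation pair Denr (0.91) and Mcts1 (0.82) at the top and the 4EHP partner gene Gigyf2 (−0.57) below. The MNK kinase gene Mknk1 rose (0.56) and Mknk2 had −0.034 (adjusted p = 0.587). Of 5 poly(A)-binding genes 4 rose and none fell, or 2 with scaling by library totals alone, with Pabpc4 at 0.41 and the inhibitor Paip2 at 0.34.

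The enzymes that make hypusine on eIF5A and diphthamide on eEF2 rose in 6 of 9 cases and fell in 1, with 4 and 1 under scaling by library totals alone or under the length and GC offsets. Dhps, the first enzyme of hypusine formation, stood at 30.5, 33.4 and 32.5 CPM with ASPS-A1 and 8.91, 10.6 and 10.7 CPM in control, 3.18-fold higher with no overlap (log2 fold change 1.67 ± 0.097 SE, adjusted p = 7.31e-20), and Dohh, the second, rose by 0.40. Dph3 (0.81) rose and Dph6 (−0.19) fell. The Dph6 call was lost without ASPS-A1 replicate 3 (adjusted p = 0.0900) or control replicate 2 (adjusted p = 0.102), and in the test against a 1.2-fold change. Of 5 tested termination and recycling genes, 2 rose and 1 fell, or 1 and 2 with scaling by library totals alone. The release factor gene Etf1 rose (0.43), Hbs1l had 0.14 (adjusted p = 0.0230) and Pelo, at about 1 to 2 CPM, had −0.81 (adjusted p = 0.0227). The Pelo call was lost without ASPS-A1 replicate 3 or control replicate 1, and the Hbs1l call without ASPS-A1 replicate 1 or 2 or control replicate 2 or 3. Of 10 mitochondrial translation factors, 8 rose and none fell, or 6 and 1 with scaling by library totals alone, with Mrrf at 0.76 and Gfm2 at 0.60.

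Fold changes of the factors tended to be lower for longer transcripts, as over all genes. Spearman's rho between log2 fold change and transcript length was −0.34 across the 62 tested members with a length and −0.39 across 11353 genes. This is a description across genes of the same libraries, and genes are not independent replicates. Among the 31 shorter members (744 to 2153 nt) 25 rose and 0 fell with a median of 0.45, and among the 31 longer ones (2170 to 7995 nt) 14 rose and 5 fell with a median of 0.095. All 5 fallen members were thus in the longer set. Among genes described above, Eif3k has 774 nt and Eif3g 1101 nt, whereas Eif4g1 has 5638 nt and Eif5b 7797 nt. Eif4g2 is the longest at 7995 nt and rose. The part of transcript length in these fold changes was not tested beyond the offsets.

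**Figure D4:**
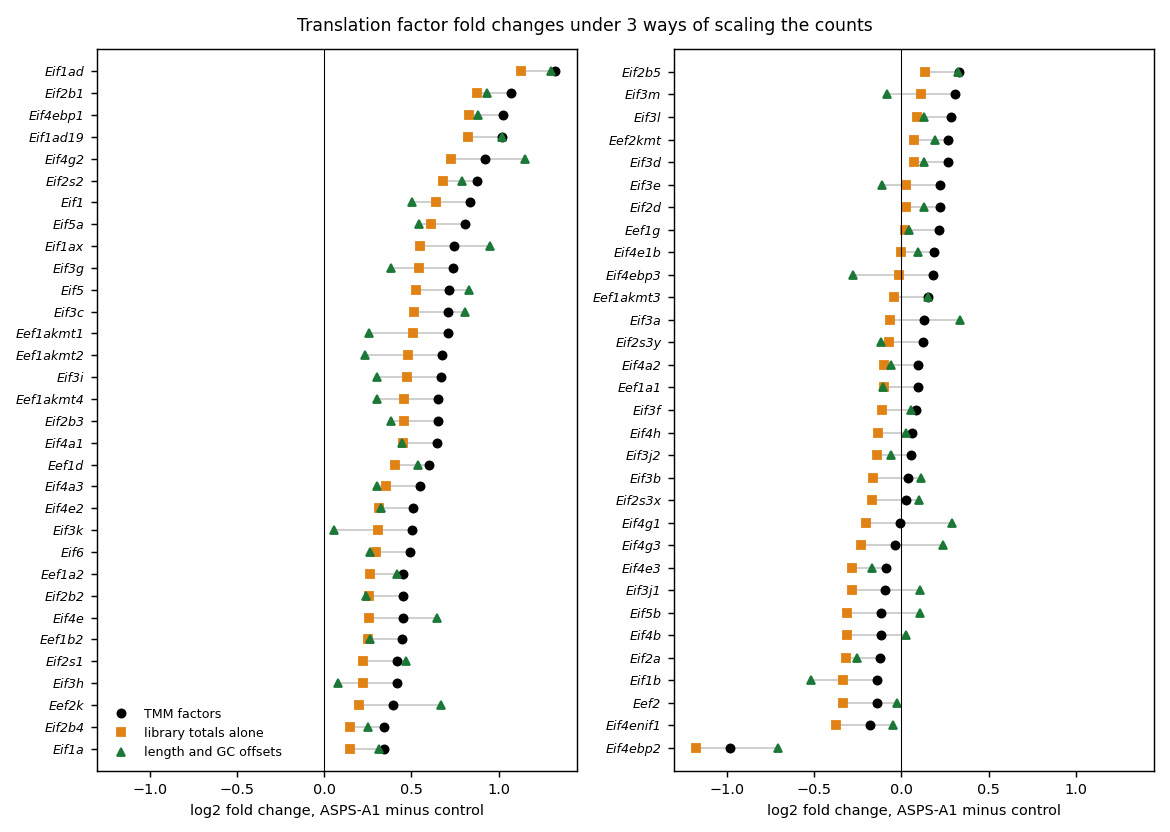
Log2 fold change (ASPS-A1 minus control) of the 63 tested members under TMM factors (black circles), library totals alone (orange squares) and length and GC offsets (green triangles; Eif1ad19 has no length and is not corrected). Genes are ordered by the TMM value. Members from Eif1ad to Eif1a keep positive values under all 3, while values in the lower range, such as Eef1a1 and Eif4g1, lie on both sides of 0.

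Of the 39 rises, 26 kept their call and direction under all 17 alternatives, which include every scaling, every left-out library and a test against a 1.2-fold change. They comprised Eif1, Eif1a, Eif1ax, Eif1ad, Eif2s1, Eif2s2, Eif2b1, Eif2b2, Eif2b3, Eif3c, Eif3g, Eif3i, Eif4a1, Eif4a3, Eif4e, Eif4e2, Eif4g2, Eif4ebp1, Eif5, Eif5a, Eif6, Eef1b2, Eef1d, Eef1akmt1, Eef1akmt2 and Eef1akmt4. The rises outside this set were those of Eif2d, Eif2b4, Eif2b5, Eif3a, Eif3d, Eif3e, Eif3h, Eif3k, Eif3l, Eif3m, Eef1g, Eef2k and Eef2kmt.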

How the data were processed

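Polyadenylated RNA from 3 ASPS-A1 and 3 control libraries of RAW 264.7 cells was sequenced, and the authors deposited 1 table of raw read counts per gene. Per the submitters' processing notes, the reads were handled with HISAT2 2.1.0, fastp 0.22.0, DESeq 1.38.3 and HTSeq 0.9.1. Which genome build, annotation, strand setting and multi-mapping rule they used is not given in the sources used here.

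Counts were filtered with filterByExpr (minimum count 10, total 15), scaled with TMM factors and fitted with edgeR 4.0.16 (robust quasi-likelihood, R 4.3.3), with Benjamini-Hochberg adjustment over all 11686 genes. Each SE was obtained as the size of the log2 fold change over the root of its F statistic. Shares and ratios were compared with exact permutation tests, in which 3 libraries against 3 cannot go below 0.1. Transcript length and GC content came from GENCODE M21, by symbol. Alternatives used DESeq2 1.42.0, limma 3.58.1, other scalings and filters, each library left out, offsets, thinning to the smallest total and a test against 1.2-fold.

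Members and lists were chosen with earlier results of these data known. Within each group the text names the 2 largest called rises and falls, the most abundant member, and the eIF4A paralogs, Eif4ebp1, Eif5a and Eef1a1. Other names were chosen after their values were seen. No 2 libraries agreed within sampling noise (within groups, chi-square over its degrees of freedom ran from 4.27 to 6.95).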

Additional observations from a re-analysis of the deposited data

How the results depend on the processing

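The direction of the members as a set was the same under every alternative, while the number that fell and the size of the medians depended on scaling. Scaling by library totals alone shifted the log2 fold changes of all genes by a median of −0.20. Counts under it therefore include a shift shared with the whole table. With this scaling 17 members fell, among them 1 of eIF2, 3 of eIF3, 6 of eIF4 and 1 of eEF1, and 6 of eIF3 rose. The medians were then 0.15 for all members, 0.075 for eIF2, 0.26 for eIF2B, 0.080 for eIF3, −0.052 for eIF4 (a reversal) and 0.25 for eEF1, and Eif4a2 and Eef1a1 turned to −0.10 each. With the length and GC offsets 8 members fell, 1 each in eIF1, eIF2, eIF2A/eIF2D, eIF3, eIF4 and eEF1 and 2 among the eIF4E-binding genes. The medians were then 0.24 for all members, 0.33 for eIF2B, 0.11 for eIF3, 0.26 for eIF4 and 0.26 for eEF1, and Eif4a2 turned to −0.059, Eef1a1 to −0.10 and Eif4b to 0.029. With relative log expression factors 3 members fell and 0 of eIF4. Upper-quartile factors gave medians of 0.29 for all members and 0.22 for eIF3, and a minimum of 1 CPM in 3 libraries gave 0.33 for eEF1. Tested against a 1.2-fold change, 1 member fell and 0 of eIF4, 3 of eIF2B and 5 of eIF3 rose, and over all genes 2460 rose and 2493 fell. Leaving out 1 library at a time left 2 to 5 members that fell and 0 to 1 of eIF4. The medians then ranged from 0.30 to 0.40 for all members, 0.075 to 0.26 for eIF4 and 0.18 to 0.48 for eEF1. Apart from what each alternative's construction sets, the cause of these shifts was not tested.

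No pairing of libraries by replicate number was seen over all genes, though the labels do not say whether libraries were paired. The deviations of same-numbered libraries from their group means correlated at −0.0413, 0.0105 and −0.00262 over 11686 genes. With the replicate block 39 members rose and 5 fell, as without it, and 3746 genes rose and 3807 fell overall. Eef1a1 passed the threshold under the block (adjusted p = 0.0130, edgeR) and Eef2k lost it (adjusted p = 0.0576). Thinned to the smallest total, the counts of calls per group of factors stayed within 1.5 times, Eif1ad19 passed the threshold (adjusted p = 0.0321) and Eef2k lost it (adjusted p = 0.0565).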
